A study of Homo sapiens with 15 samples.

Results

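The 10 genes described here, TNS1, TNS3, TNS4, PARVA, PARVB, ILK, ZYX, PXN, VCL and TLN1, encode tensins, parvins and adaptor proteins of focal adhesions. The genes were chosen by name as parts of integrin adhesions, with earlier results of the same green-channel differences between CYGB+ and NCE in view, and their probes were those whose RefSeq accession belonged to one of them. All 10 were on the array, through 13 probes of 42405, and 12 of these probes passed the filter on dim probes. Those differences are the contrast described below, so adjusted p-values for these 10 genes are given as descriptions.

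Focal adhesions are the sites where integrins, the receptors that bind the extracellular matrix, are tied to actin filaments inside the cell. Talin binds the integrin tail and opens the receptor, and vinculin is then recruited and strengthens the tie to actin. Integrin-linked kinase, a pseudokinase, holds together a second bridge made with PINCH and a parvin. Paxillin and zyxin are LIM domain proteins that bring in signalling and actin assembly factors, and tensins bind integrin tails through a phosphotyrosine binding domain. In epithelial cells these structures anchor the cell to its matrix and turn over as it migrates.

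The cells were PE/CA-PJ41, an established human oral squamous carcinoma line. Cells labelled NCE carried an empty vector, and cells labelled CYGB+ carried pCMV6-Neo with the human cytoglobin cDNA. Cytoglobin is a haem globin that binds oxygen. Both were cultured for 24 h in supplemented RPMI1640 medium before RNA was extracted on 3 separate occasions, giving 3 biological replicates per group. The NCE replicates were each hybridised to 3 arrays and the CYGB+ replicates to 2, for 9 and 6 arrays. Stable CYGB+ cells were picked with cloning rings under G418, and the methods name 1 clone for the arrays, so an effect of cytoglobin and a difference between clones cannot be told apart. The control is an empty vector line in the labels, while part of the study's text calls it the parent line without a vector.

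The labels give Cy3, the green channel, for all 15 samples, whereas the methods place control RNA in Cy5. The green channel was used throughout, and every direction below rests on the labels. The array's CYGB probe did not separate them. Its normalized log2 intensity was 11.87, 12.16 and 11.94 in the NCE replicates and 11.36, 12.42 and 11.96 in the CYGB+ replicates, a difference of -0.07 with an adjusted p of 0.879 (limma). Where this probe lies in the transcript, and so whether it can detect the transfected cDNA, was not known here. The groups are therefore the replicates labelled NCE and labelled CYGB+, and fewer cells with a transcript cannot be told apart from less of it per cell.

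Between 53.8% and 61.3% of spots were well above background on each array, and the median green intensity over local background split with the slide. It was 36.5 to 49.5 units on the 8 NCE arrays of the first slide, 15 on the NCE array of the second slide, and 6.5 to 19.5 on the 6 CYGB+ arrays, all on the second slide. Its part in the differences below was not tested. Of 10 squamous epithelial markers, 10 were above background on all 15 arrays, including KRT5, KRT14 and TP63. Of 5 fibroblast markers, COL1A2 was above background on 15 arrays, COL1A1 on 13, DCN on 1, and LUM and PDGFRB on 0. COL1A2 fell by 1.33 in the replicates labelled CYGB+. Of 4 endothelial markers, CDH5 was above background on 14 arrays, PECAM1 and KDR on 1 each, and VWF on 0. Among leukocyte markers, CD14 was above background on 15 arrays, PTPRC on 5 and CD3E on 3. The part of such cells or genes in the results was not tested.

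Arrays of the same RNA did not always resemble each other. The first component of the deviations within groups held 46.8% of their variance and set 4 arrays apart: CYGB+ replicate 1 array 1, NCE replicate 3 array 2, NCE replicate 1 array 3 and CYGB+ replicate 3 array 2. The first slide held 8 NCE arrays, and the second slide held the remaining NCE array with all 6 CYGB+ arrays, so slide and group were nearly the same split. That NCE array, replicate 1 array 3, is one of the 4 that stood apart, and every value with the slide as a block or within the second slide rests on it. The values of the genes that lay lower are given with and without the 4 arrays and with the slide in the fit. Unless stated, a value is the mean of 3 replicates, a difference is CYGB+ minus NCE on the log2 scale, and ± is the standard error from limma.

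Across the array 1237 of 22328 tested probes were lower in the replicates labelled CYGB+ at an adjusted p under 0.05, which is 5.54%, and 1175 were higher, which is 5.26%. Of the 10 genes, 3 were called lower (TNS4, PARVA and VCL), 7 were not called and 0 were called higher. At an unadjusted p under 0.05 in the same limma fit, ILK was also lower and the second PXN probe higher. Of all 22328 tested probes, 6139 passed that threshold. The second TNS1 probe was higher too, but it passed the filter on dim probes only through its CYGB+ arrays, so nothing is read from it. The median difference of the 10 genes was -0.01, and that of all tested probes was also -0.01. The choice of the genes used this contrast, and nothing is read from their count against the background.

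Promoter windows are shown for VCL and ILK, 2 of the 4 genes whose replicates labelled CYGB+ all lay below those labelled NCE. For the other 2, TNS4 and PARVA, no window was found. Each window shown is the 250 bases before the annotated start on the plus strand of GRCh38.p14, chr10:73997866-73998115 for VCL and chr11:6603524-6603773 for ILK. Capitals mark GC boxes (GGGCGG, either strand) and TEAD motifs (GGAATG, either strand).
VCL: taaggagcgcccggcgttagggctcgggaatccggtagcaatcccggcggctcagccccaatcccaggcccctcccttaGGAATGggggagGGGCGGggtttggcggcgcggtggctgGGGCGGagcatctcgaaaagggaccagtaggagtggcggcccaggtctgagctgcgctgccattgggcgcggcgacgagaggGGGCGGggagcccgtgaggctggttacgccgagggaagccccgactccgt
ILK: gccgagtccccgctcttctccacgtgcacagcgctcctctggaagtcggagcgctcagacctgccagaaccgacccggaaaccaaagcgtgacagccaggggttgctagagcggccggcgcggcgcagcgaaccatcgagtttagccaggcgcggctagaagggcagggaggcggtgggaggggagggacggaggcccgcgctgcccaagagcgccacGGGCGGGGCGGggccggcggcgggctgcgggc
The VCL window held 3 GC boxes and 1 TEAD motif, and the ILK window held 2 overlapping GC boxes and 0 TEAD motifs. A GC box stood in 42.6% of 35097 RefSeq windows of this length and the TEAD motif in 11.9%. Neither window held an AP-1 motif (TGANTCA) or a CArG box, the element bound by SRF, which stood in 6.57% and 1.16% of the windows. These are matches of letters only. Windows were found for 8 of the 10 genes. Each of these genes had a GC box in at least 1 window, also those not called, with 8 in a PXN window and 1 in that of TLN1. TEAD motifs also stood in windows of TNS1 and PXN, but not in those of TNS3, PARVB, ZYX and TLN1.

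Among the tensins, TNS4 showed the largest difference of the 10 genes. TNS4 encodes the shortest tensin, which lacks the actin-binding region of the others. Its log2 intensity was 9.93, 10.07 and 10.42 in the NCE replicates and 8.06, 8.45 and 8.03 in the CYGB+ replicates. The groups did not overlap, and over single arrays all 6 CYGB+ arrays lay below all 9 NCE arrays. The difference was -1.96 ± 0.17, a 3.89-fold lower level, with an adjusted p of 0.00356 (limma, n = 3 and 3 replicates). It was -1.99 without the 4 arrays that stood apart. With the slide as a block, in the fit of 15 single arrays, it was -1.59 (adjusted p = 0.00105, limma). Within the second slide, which held a single NCE array, it was -1.54 and not called.

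The other tensins were not called. TNS3 had 8.31, 7.98 and 8.19 in NCE and 8.43, 7.96 and 7.88 in CYGB+, which overlapped, with a difference of -0.07 and a 95% interval from -0.46 to 0.32. TNS1 was read by 3 probes, of which 2 were tested. Its leading probe, A_33_P3209491, had 7.07, 6.89 and 7.24 in NCE and 7.92, 6.81 and 7.15 in CYGB+. The high value came from CYGB+ replicate 1 array 1, at 8.90 against 6.95 on the other array of the same replicate, and without the 4 arrays the difference went from 0.22 to -0.03. The dimmer A_33_P3738458 was above background on 9 arrays, 3 of NCE and 6 of CYGB+. It thus passed the filter on dim probes only through its CYGB+ arrays. It read 6.26, 6.18 and 6.24 in NCE against 6.52, 6.42 and 6.48 in CYGB+, groups that did not overlap. Its difference was 0.25 with an adjusted p of 0.107 (limma), and nothing is read from it. The third, A_24_P105733, was not well above background on any array and was not tested.

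**Figure D1:**
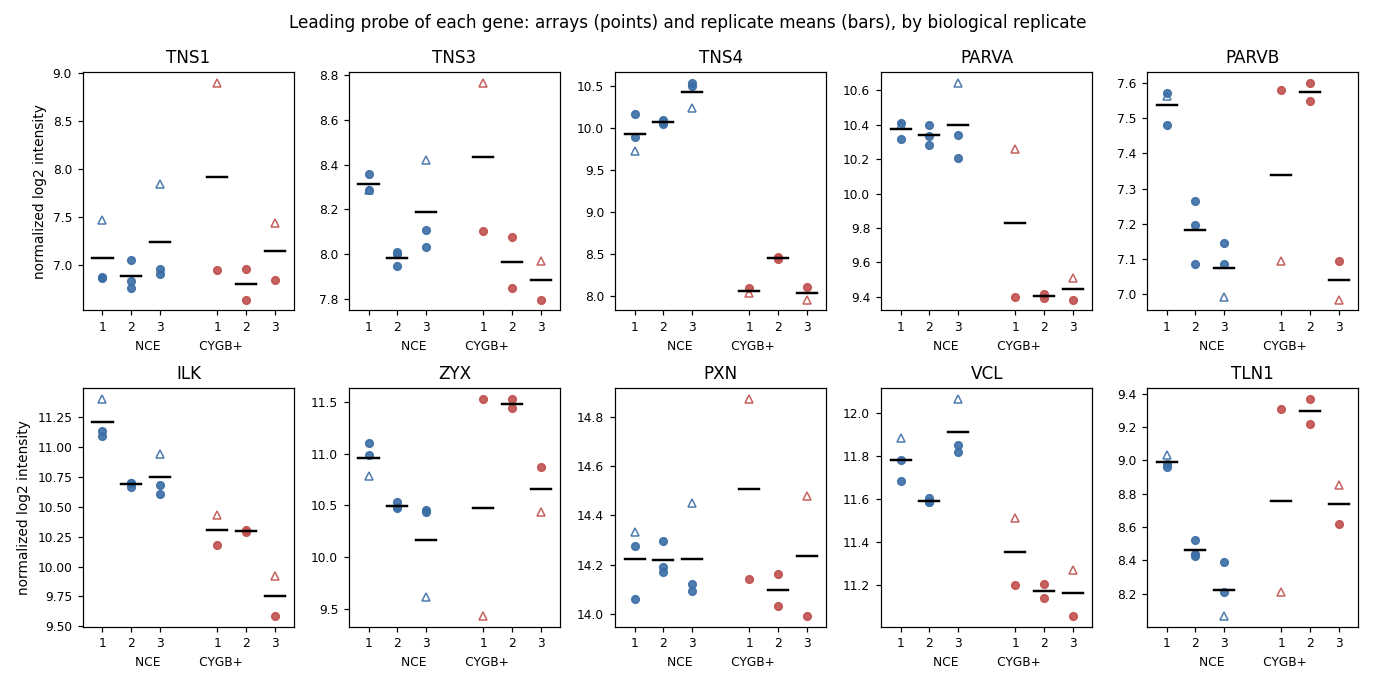
Normalized log2 green intensity of the leading probe of each gene in each array (points) and the mean of each biological replicate (bars), for NCE replicates 1 to 3 (blue) and CYGB+ replicates 1 to 3 (red). Open triangles are the 4 arrays that stood apart. TNS4, PARVA, ILK and VCL are the panels in which the red bars all lie below the blue bars, and the open triangle of CYGB+ replicate 1 lies far from its partner array in TNS1, PARVA and ZYX.

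In the complex of ILK, PINCH and parvin, PARVA was called lower and ILK lay just outside the threshold. PARVA encodes alpha-parvin, which joins ILK to actin. Its log2 intensity was 10.38, 10.34 and 10.40 in NCE and 9.83, 9.40 and 9.44 in CYGB+, without overlap. The difference was -0.81 ± 0.13, 1.76-fold lower, with an adjusted p of 0.0123 (limma). CYGB+ replicate 1 array 1 read 10.26, against 9.38 to 9.51 on the other 5 CYGB+ arrays, and without the 4 arrays the difference was -0.93. With the slide as a block it was -0.84, and the adjusted p of 0.109 (limma) no longer passed. It did not pass without NCE replicate 2 or 3 either, at adjusted p-values of 0.0594 and 0.0592 (limma).

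PARVB, the beta-parvin gene, read 7.54, 7.18 and 7.07 in NCE and 7.34, 7.57 and 7.04 in CYGB+, which overlapped. Its difference was 0.05 with a 95% interval from -0.36 to 0.46. The 2 parvin intervals did not overlap, but the difference between the parvins was not tested.

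ILK was measured by 10 spots of 1 probe. It read 11.21, 10.69 and 10.75 in NCE and 10.31, 10.30 and 9.76 in CYGB+, so the groups did not overlap. The difference was -0.76 ± 0.20, 1.70-fold lower, with an adjusted p of 0.0538 (limma). The replicate number as a block brought it inside, with an adjusted p of 0.0282 (limma). It was also called without the 4 arrays (-0.79, adjusted p = 0.0254) and with the slide as a block (-1.19, adjusted p = 0.0159, limma), where it rests on the NCE array with the highest ILK value, 11.40. It was not called without any 1 of the 6 replicates, at adjusted p-values of 0.0567 to 0.122 (limma).

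Of 3 other tested genes of this complex, LIMS1, the gene of PINCH1, was called lower, from 10.13 to 9.52, a difference of -0.61 with an adjusted p of 0.0290 (limma). LIMS2 and RSU1 had differences of -0.00143 and 0.08 and were not called. PARVG was below the filter.

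Around talin and vinculin, VCL was lower. VCL encodes vinculin, and its log2 intensity was 11.78, 11.59 and 11.91 in NCE and 11.35, 11.17 and 11.16 in CYGB+. The groups did not overlap, and all 6 CYGB+ arrays lay below all 9 NCE arrays. The difference was -0.53 ± 0.11, 1.45-fold lower, with an adjusted p of 0.0309 (limma). It was -0.58 without the 4 arrays, and -0.66 with the slide as a block, where the adjusted p was 0.0508 (limma). Leaving out any of NCE replicates 1 to 3 or CYGB+ replicate 2 or 3 also ended the call, with adjusted p-values of 0.0608 to 0.120 (limma).

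TLN1, the talin 1 gene, read 8.99, 8.46 and 8.22 in NCE and 8.76, 9.30 and 8.74 in CYGB+. The groups overlapped, and the difference of 0.37 had a 95% interval from -0.17 to 0.91. It was 0.50 without the 4 arrays and 0.04 with the slide as a block. Of 3 other tested genes of the talin, vinculin and kindlin list, 0 were called at an adjusted p under 0.05 (limma). The kindlin genes FERMT1 and FERMT2 had differences of -0.51 and 0.48, with adjusted p-values of 0.0872 and 0.0513 (limma).

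Neither LIM adaptor was called. ZYX, the zyxin gene, read 10.96, 10.49 and 10.17 in NCE and 10.48, 11.49 and 10.66 in CYGB+, a wide spread with overlap. Its difference was 0.33 with a 95% interval from -0.37 to 1.03. The 2 arrays of CYGB+ replicate 1 read 9.43 and 11.53, and without the 4 arrays the difference was 0.63 with an adjusted p of 0.0674 (limma). PXN, the paxillin gene, was bright on its leading probe, at 14.22, 14.22 and 14.22 in NCE and 14.51, 14.10 and 14.24 in CYGB+. That difference was 0.06 with a 95% interval from -0.22 to 0.34. The second PXN probe, for another accession, differed by 0.29 with an adjusted p of 0.172 (limma).

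**Figure D2:**
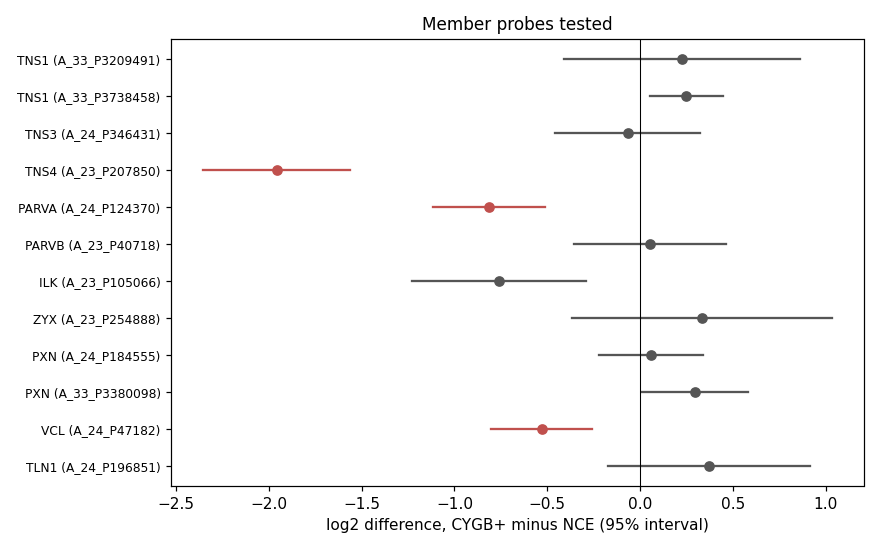
Difference of each tested probe of the 10 genes, CYGB+ minus NCE on the log2 scale, with its 95% interval from limma, by probe. Red marks the probes called lower at an adjusted p under 0.05, which are TNS4 at -1.96, PARVA at -0.81 and VCL at -0.53, and the ILK interval also lies below 0.

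Within the second slide, against its single NCE array, the differences were -0.84 for PARVA, -1.28 for ILK and -0.65 for VCL, with adjusted p-values of 0.310, 0.243 and 0.312 (limma). Among leading probes, the replicates of 4 of the 10 genes (TNS4, PARVA, ILK and VCL) lay wholly below NCE and those of 0 lay wholly above. Over the array 17.3% of tested probes lay wholly below and 16% wholly above. For some genes single array repeats spread as widely about their replicate mean as the replicate means did within a group. These measures are unlike, since a replicate mean averages 3 NCE or 2 CYGB+ arrays. For ZYX the SD over single repeats was 0.558, and over replicate means 0.397 in NCE and 0.538 in CYGB+. For TNS4 the same SDs were 0.137, 0.256 and 0.234, far below its difference.

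**Figure D3:**
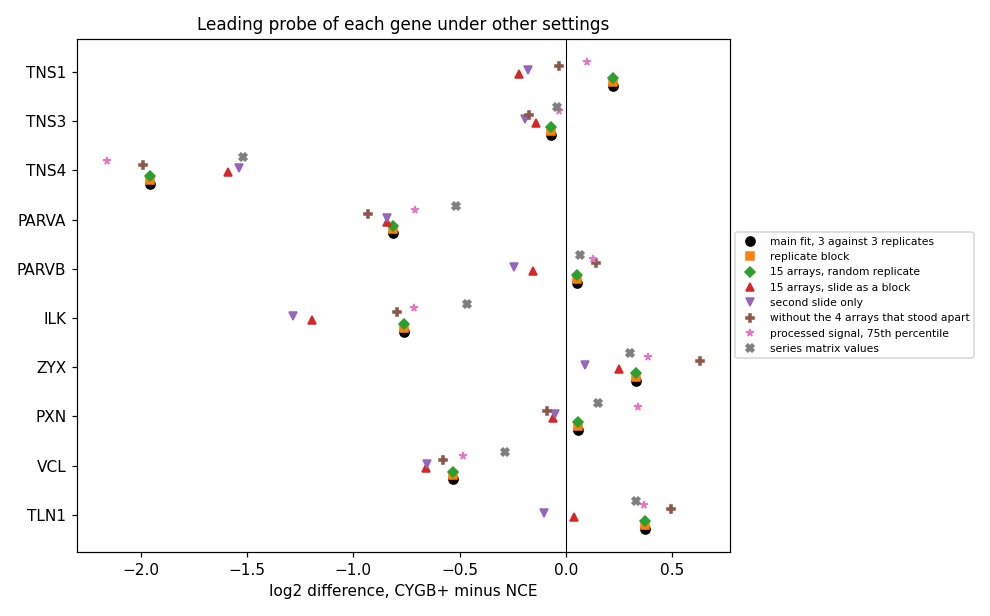
Log2 difference, CYGB+ minus NCE, of the leading probe of each gene (rows) under 8 settings (symbols). TNS4, PARVA, ILK and VCL lie below 0 in each setting drawn, TNS4 between -2.16 and -1.52. TNS3 also lies below 0 in each, between -0.19 and -0.03, and ZYX lies above 0 in each. TNS1, PXN, PARVB and TLN1 have symbols on both sides of 0.

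The other genes of the adhesion machinery were read from 9 lists. Of 75 tested genes outside the 10, 11 were called lower, 3 higher and 61 were not called. Their median difference was -0.05, against -0.01 for all tested probes, of which 5.54% were called lower and 5.26% higher. The list counts use the leading probe of each gene, while the shares cover all tested probes, so their bases are unlike. Without the 4 arrays that stood apart the list counts were 16 lower and 8 higher, while 13% of all tested probes were lower and 12.2% higher. With the slide as a block they were 4 lower and 1 higher, against 1.99% and 1.43% of all tested probes. In the zyxin family, AJUBA, a LIM protein of adhesions and junctions, was lower by 0.89, from 11.33 to 10.44, and the other 5 tested relatives of zyxin were not called. In the paxillin family LPXN and TGFB1I1 had differences of -0.42 and -0.52, with adjusted p-values of 0.0558 and 0.0528 (limma).

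Among 18 tested FAK and Src signalling genes, 2 were lower, 1 was higher and 15 were not called. ELMO2, which acts with DOCK proteins on Rac, went from 9.20 to 8.56, and PAK1, a kinase downstream of Rac, from 10.64 to 10.07. PTK2, the gene of focal adhesion kinase, was higher, from 8.68 to 9.05, a difference of 0.37 with an adjusted p of 0.0474 (limma). Among 18 tested actin linkers, 3 were lower and 0 higher. MYL9, a myosin light chain, went from 9.60 to 8.72, and VASP, which promotes actin elongation and binds zyxin, from 9.96 to 9.38.

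Of 11 tested integrin genes, 3 were lower and 0 higher. ITGB8 had a difference of -1.03 and ITGB4, the partner of ITGA6 in hemidesmosomes, -0.70, from 13.14 to 12.44. ITGB1, whose product is the common beta subunit of matrix receptors, had a difference of -0.11 and was not called. Of 13 tested SRF and MRTF targets of the actin cytoskeleton, 1 was lower and 2 higher. CALD1, the caldesmon gene, went from 12.10 to 11.39, while CCN2 went from 10.00 to 10.79 and TPM2, a tropomyosin gene, from 12.52 to 13.29.

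**Figure D4:**
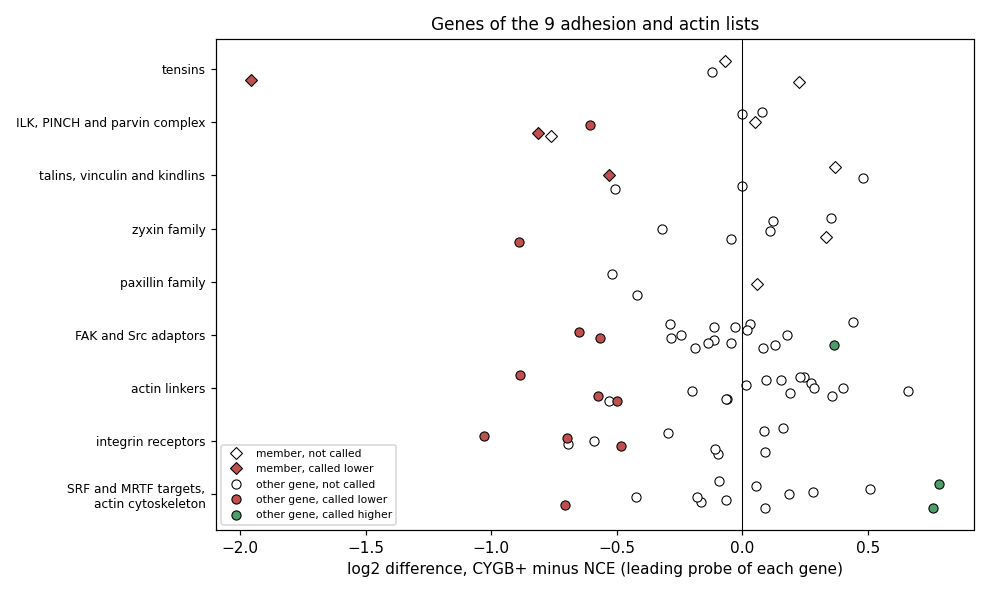
Log2 difference, CYGB+ minus NCE, of the leading probe of each tested gene in the 9 adhesion and actin lists (rows), diamonds for the 10 genes and circles for the others. Filled red symbols were called lower and filled green ones higher. TNS4, at -1.96, is the leftmost point, and the 3 green circles are PTK2, TPM2 and CCN2.

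The 3 genes outside the 10 whose 6 replicate values, each set against its own NCE mean, lay closest to those of TNS4 were FOXQ1, OSGEP and DKK3. Their root mean square distances from TNS4 were 0.260, 0.263 and 0.264 over 6 replicates, out of 12875 genes compared, and their differences were -1.95, -1.74 and -1.74. No gene of the 10 was called higher, so the same was not done for a rise.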

How the data were processed

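RNA of 6 biological samples (3 per group) was hybridised to 15 two-colour Agilent arrays. The deposited scanner files give green and red intensity per spot, extracted by the authors with Agilent Feature Extraction 10.7.3.1. A deposited table of log2 values, centred per probe to a baseline that is not given, served as an alternative. It followed the green channel in direction, but not closely on every array. Its correlation with the centred green values was 0.655 to 0.850 over the NCE arrays and 0.434 to 0.859 over the CYGB+ arrays. Probes were named through RefSeq accessions: of 26310 with such an accession, 25420 matched a gene.

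Median spot and background intensities (mean signals, as first planned, were not in the files) were corrected by normexp with an offset of 50. Control and outlier-flagged spots were left out, arrays were quantile normalized, and spots of a probe and array repeats were averaged. The 22328 probes well above background on at least 6 of 15 arrays were fitted with limma 3.58.1 (R 4.3.3), and p-values were adjusted by Benjamini-Hochberg. A gene stands by its brightest tested probe. All probes of the 10 genes are named, with the 2 largest called genes per list and direction and the 3 genes nearest to TNS4. The fits were tested on simulated data that held no slide effect, so the near match of slide and group was not covered. The number of arrays limits the precision, and the labels and methods call the 3 samples of a group biological replicates without saying whether they came from separate cultures, so p-values measure the spread between these samples, which may be technical.

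Deviations of same-numbered replicates correlated at 0.207, 0.229 and 0.300 between groups. NCE replicate 1 correlated better with CYGB+ replicate 2 (0.213) and NCE replicate 2 better with CYGB+ replicate 3 (0.287), so a pairing by number was not settled. The main fit was unpaired, and the numbers were taken as pairs only in the replicate block alternative. The 10 genes and the lists were chosen with earlier results of these data known. Alternatives changed the background correction, scaling, filter, flags, slide, test and replicates. Leaving out the 4 arrays that stood apart, or CYGB+ replicate 1 array 1 alone, was chosen after seeing the data. The red channel was not compared, since the labels do not say what it holds.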

Additional observations from a re-analysis of the deposited data

Results flagged for a closer look

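Of the values of the 10 genes, 6 lay far from the other arrays of their group by Dixon's criterion, which flags about 1 in 20 groups by chance, out of 24 groups of arrays examined. Of these, 4 were on CYGB+ replicate 1 array 1. There TNS1 probe A_33_P3209491 read 8.90 against 6.65 to 7.44 on the other arrays, TNS3 read 8.77 against 7.80 to 8.10, PARVA read 10.26 against 9.38 to 9.51, and PXN probe A_33_P3380098 read 7.19 against 7.75 to 7.94. The others were on NCE replicate 3 array 2, where PARVA read 10.6 against 10.21 to 10.41 and ZYX read 9.62 against 10.43 to 11.11. In the red channel, which enters no comparison, 12 probes of the 10 genes were well above background on all 15 arrays.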

How the results depend on the processing

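TNS4 stayed lower in each of 23 alternatives, from -2.18 to -1.52, and was called in 22, the exception being the second slide alone. Its lowest adjusted p, 9.24e-08 (limma), came from all 15 single arrays with a random replicate, where array repeats count towards the p-value. PARVA (-0.96 to -0.52, called in 16 of 23), ILK (-1.28 to -0.47, called in 9) and VCL (-0.66 to -0.29, called in 11) kept their sign in all 23, and no other gene of the 10 was called in any. ZYX also kept its sign, above 0, from 0.03 to 0.68. TNS1, TNS3, PARVB, PXN and TLN1 changed sign in at least 1. The replicate block, with the replicate numbers taken as pairs, added ILK, gave 4 of the 10 genes lower, and raised the list genes called lower from 11 to 17. It changed no other call among the 10.

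The counts below are probes called higher and lower (1175 and 1237 in the main fit), genes of the 10 called lower (3), and list genes outside the 10 called higher (3) and lower (11), where they moved by over 1.5 times. Processed signals with quantile scaling gave 1 and 5 list genes. Scaling to the 75th percentile gave 743 and 719 probes and 7 list genes lower, and with processed signals 775 and 732 probes, 1 of the 10 and 3 list genes lower. Without the filter on dim probes 7 list genes were lower. All 15 arrays with a random replicate gave 2377 and 2475 probes and 8 and 18 list genes. With the slide as a block the counts were 320 and 445 probes and 1 and 4 list genes, and within the second slide (limma, 1 NCE array, assumed to vary like the CYGB+ replicates) 3 and 2 probes, 0 of the 10, and 0 and 0 list genes. The methods' t-test gave 5370 probes at an unadjusted p under 0.05 and, after Benjamini-Hochberg, 293 and 289 probes, 1 of the 10, and 0 and 2 list genes. The deposited log2 table held 15031 matched probes, against 22328 in the main fit, and the leading probe of 9 of the 10 genes. It gave 764 and 680 probes, 1 of the 10 and 5 list genes lower, so its counts have a smaller base. Without the 4 arrays that stood apart there were 2735 and 2904 probes and 8 list genes higher, and without CYGB+ replicate 1 array 1 alone 1979 and 2144 probes and 7 list genes higher. A fold of at least 1.5 left 630 and 728 probes and 7 list genes lower, and a fold of at least 2 left 132 and 153 probes, 1 of the 10, and 0 and 1 list genes. Leaving out 1 biological replicate gave 232 to 1205 probes higher, 270 to 1187 lower, 1 to 3 of the 10 lower, and 0 to 3 list genes higher and 2 to 10 lower. The lowest probe counts came without NCE replicate 2 (232 and 276) or NCE replicate 3 (253 and 270), and they also moved by over 1.5 times without NCE replicate 1 (539 and 635) or CYGB+ replicate 3 (585 and 687). Apart from fewer samples, fewer probes or the added fold, the cause was not tested. Dim probes such as those of TNS1 lie near background, which limits what their differences can show.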
